A study of Mus musculus with 6 samples.

Results

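The genes described here are the complement components and regulators C4b, C3, C2, Cfb, Cfd, Serping1, Masp1, Cd55 and Cd59a. These 9 genes were chosen with their NF and N values on the same arrays in view, so the comparison of NF with N is given for them as a description and carries no test. A gene was measured through the probe sets that the array annotation pairs with exactly 1 gene symbol. By this rule 5 of the 9 genes were measured (C4b, C2, Cfb, Masp1 and Serping1, with 1 probe set each), out of 16797 genes in all. C3, Cfd, Cd55 and Cd59a are not analysed here.

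NIH3T3 mouse embryonic fibroblasts, the Normal cells of the study, were profiled on 6 Affymetrix gene arrays. The NF group held 3 arrays of cells that received 10 μM forskolin (FSK) at 24 h and once more at 48 h. The N group held 3 arrays of cells without FSK. The paper calls these cells untreated, and its treatment scheme gives them the vehicle DMSO. Both groups were plated in 25 mM glucose, changed after 16 h to 1 mM glucose and grown for 72 h. By then, the paper reports, the glucose of the medium was used up with or without FSK. FSK activates adenylate cyclase, which raises cAMP and so activates protein kinase A. The labels call the arrays of a group biological replicates, all from a single immortalised line.

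Complement is a cascade of plasma proteins that marks and lyses microbes and damaged cells. The liver makes most of its circulating proteins, and other cells, fibroblasts among them, can make components locally. The classical pathway starts with C1q and its proteases and the lectin pathway with mannose-binding lectins, ficolins and the MASP proteases, and both cleave C4 and C2 to build the enzyme that cleaves C3. The alternative pathway builds its own C3-cleaving enzyme from C3b and a fragment of factor B, which factor D cuts. The C1 inhibitor (Serping1) blocks the early proteases, while the membrane proteins encoded by Cd55 and Cd59a hold back the C3-cleaving enzymes and the lytic pore.

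Values are log2 expression values after RMA, and a difference is NF minus N on that scale. The median of the mean values over all probe sets tested, 3.70, is used as a line below which a probe set is called dim. The deposited values come with no detection call, so a dim probe set is not thereby shown to lack the transcript. Levels are compared between groups for 1 probe set at a time, apart from the summed levels of marker lists, and never between genes. With bulk RNA, fewer cells that express a gene and less of its RNA per cell cannot be told apart.

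N replicate 1 stood apart. Its values spread less (SD 2.42 over all probe sets, against 2.58 to 2.62 on the other 5 arrays). For moderately expressed probe sets its median lay 0.49 below the mean of N replicates 2 and 3. The 3 NF arrays lay -0.08 to -0.04 from that mean. Over all genes limma called 428 with a Benjamini-Hochberg adjusted p under 0.05, 307 higher and 121 lower in NF cells. A further quantile normalization gave 495 higher and 365 lower. Dropping NF replicate 1, 2 or 3 from the fit left 1, 241 and 2 calls in that order. Dropping N replicate 1, 2 or 3 gave 922, 349 and 139. Differences of C4b, Stat3, Il1r1, Rela and Cd14 are therefore given with and without it. Other differences are given only with it, among them those of Thy1, Lyz2 and Irf1, whose lowest value was that of N replicate 1.

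C4b was the only gene of the 5 whose NF and N values did not overlap. C4b encodes complement C4, the thioester protein that binds covalently to surfaces and anchors the C3-cleaving enzyme of the classical and lectin pathways. Its values were 6.97, 6.40 and 6.68 on the NF arrays, against 3.45, 3.82 and 3.40 on the N arrays. All 3 NF values stood above the line of 3.70, and of the N values that of replicate 2 did. The mean was 6.69 ± 0.29 in NF cells and 3.56 ± 0.23 in N cells (SD, n = 3 each), a difference of 3.13 with a standard error of 0.19 from the limma fit, or 8.76-fold. Ordered by this difference from the highest, C4b was number 2 of the 16797 genes, whose highest value was 3.25. Because the N values lie near the dim line, where background makes up much of an array signal, the fold is relative to a level that is itself poorly resolved.

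Of the 5 genes, 1 had an adjusted p under 0.05 in that fit, C4b, and 2.55% of all genes did. Likewise 1 of the 5 had groups that did not overlap, and 20.2% of all genes did. Neither count is read as a result, since the genes were selected on this contrast. Leaving out any single array left the C4b difference between 2.99 and 3.27, and without N replicate 1 it was 3.08. C4b lies on chromosome 17 beside a near-identical copy, C4a, for which no probe set with 1 symbol was found, and how much C4a transcript adds to the C4b signal was not tested.

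**Figure D1:**
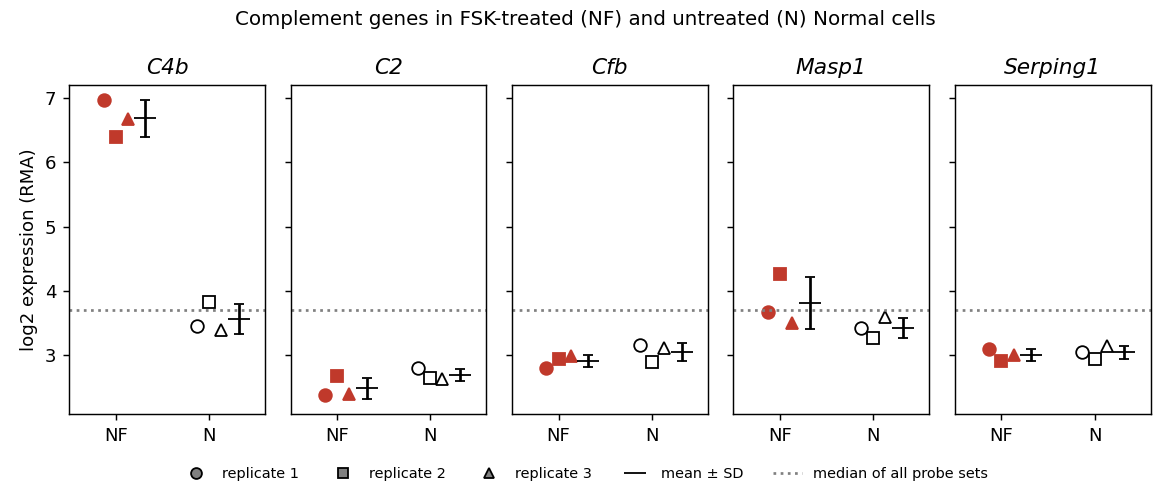
Log2 expression after RMA of the 5 measured complement genes, with the 3 NF arrays (red) left of the 3 N arrays (open), 1 symbol per replicate and the group mean ± SD beside them; the dotted line is the median of all probe sets, 3.70. C4b is at 6.40 to 6.97 on the NF arrays and 3.40 to 3.82 on the N arrays, while the values of the other 4 genes overlap between NF and N.

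C2, the protease that joins C4 in the C3-cleaving enzyme, gave overlapping groups. The C2 values were 2.38, 2.67 and 2.40 on the NF arrays, against 2.79, 2.64 and 2.63 on the N arrays. NF replicate 2 lay among the N values, and every value was dim. The mean was 2.48 ± 0.17 in NF cells and 2.69 ± 0.09 in N cells (SD, n = 3 each), a difference of -0.21 with a standard error of 0.14 and a 95% interval of -0.52 to 0.11.

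Cfb encodes factor B, the counterpart of C2 in the alternative pathway. Its values were 2.81, 2.95 and 2.99 on the NF arrays, against 3.15, 2.90 and 3.10 on the N arrays. The lowest N value fell between the NF values, and all 6 values were dim. The difference was -0.14 with a standard error of 0.13 (95% interval -0.44 to 0.17), from means of 2.91 ± 0.10 in NF cells and 3.05 ± 0.14 in N cells (SD, n = 3 each).

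Masp1, a protease of the lectin pathway, varied more among the NF arrays than C2, Cfb or Serping1. Its values were 3.67, 4.27 and 3.50 on the NF arrays, against 3.42, 3.26 and 3.59 on the N arrays. NF replicate 2 was the only value above the line, and NF replicate 3 lay below N replicate 3. The mean was 3.82 ± 0.40 in NF cells and 3.42 ± 0.16 in N cells (SD, n = 3 each), and the difference of 0.40 had a standard error of 0.21 and a 95% interval of -0.09 to 0.88. Without NF replicate 2 the difference was 0.17.

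Serping1 encodes the C1 inhibitor, which inactivates C1r, C1s and the MASP proteases. Its values of 3.10, 2.91 and 3.01 on the NF arrays fell within those on the N arrays, 3.05, 2.93 and 3.14, except for NF replicate 2, which was lowest by a small margin. The mean was 3.01 ± 0.09 in NF cells and 3.04 ± 0.10 in N cells (SD, n = 3 each). The difference of -0.04, with a standard error of 0.13 and a 95% interval of -0.33 to 0.25, changed sign between alternatives.

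Across the 5 measured genes the median difference was -0.04, beside -0.03 over all genes, with 2 genes of higher and 3 of lower mean in NF cells. The 95% intervals of C2, Cfb, Masp1 and Serping1 stayed within a 2-fold change either way. The interval of C4b, 2.70 to 3.56, lay far from theirs, which restates the values on which the genes were chosen.

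The rest of the complement system was read from a list of 48 further genes written from general knowledge, of which 39 were measured. The same limma fit called 0 of the 39 at an adjusted p under 0.05, where 2.55% of all genes were called. At an unadjusted p under 0.05 limma counted 1, the integrin gene Itgb2, and so did an unmoderated test of each gene, named in the study's general statistics section, which left 0 after adjustment. In 38 of the 39 the 95% interval of the difference stayed within 2-fold. The median difference was -0.05, with 13 genes of higher and 26 of lower mean in NF cells, and 31 of the 39 were dim on every array, so that a change could have been missed at these levels.

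Taken by role, the classical and lectin pathway list had 13 of 16 genes measured and 0 called. It holds the C1q chains C1qa, C1qb and C1qc, whose differences were 0.01, -0.01 and 0.05, and the C1 protease gene C1ra, with -0.01. These proteins act just before C4 in the cascade. C1qa, C1qb and C1qc were dim on every array, so a change in them could have been missed. The lowest p of the list was that of Colec12, a scavenger collectin of the cell surface, with 9.68, 9.40 and 9.54 on the NF arrays and 9.03, 9.39 and 9.19 on the N arrays. The Colec12 groups did not overlap, by the margin between NF replicate 2 and N replicate 2, and its difference of 0.34 had a limma adjusted p of 0.374.

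The alternative pathway and terminal pathway lists had no gene called. The alternative pathway and convertase list gave -0.03 for Cfp, which encodes properdin, and -0.03 for Hc, which encodes C5. Both were dim on every array. The terminal pathway genes, which build the lytic pore, were all 6 dim on every array, with differences between -0.10 and 0.23.

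Among the regulators, 11 of 15 genes were measured and 0 called. Cr1l, which encodes the rodent membrane inhibitor Crry, was expressed on all arrays, with 4.44, 5.10 and 4.69 on the NF arrays and 5.31, 4.77 and 5.49 on the N arrays. NF replicate 2 stood above N replicate 2, so the groups overlapped, and the difference of -0.44 had a limma adjusted p of 0.487. Among the receptors, 7 of 9 genes were measured and 0 called. Itgb2, the shared chain of the leukocyte integrins that bind C3 fragments, had 3.95, 3.67 and 3.73 on the NF arrays and 3.32, 3.55 and 3.45 on the N arrays, a difference of 0.34 with a limma adjusted p of 0.320. Its groups did not overlap, but NF replicates 1 and 3 were the only values above the dim line, and Itgam, which encodes a partner of Itgb2 in the C3 fragment receptor, was dim throughout with a difference of 0.00.

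**Figure D2:**
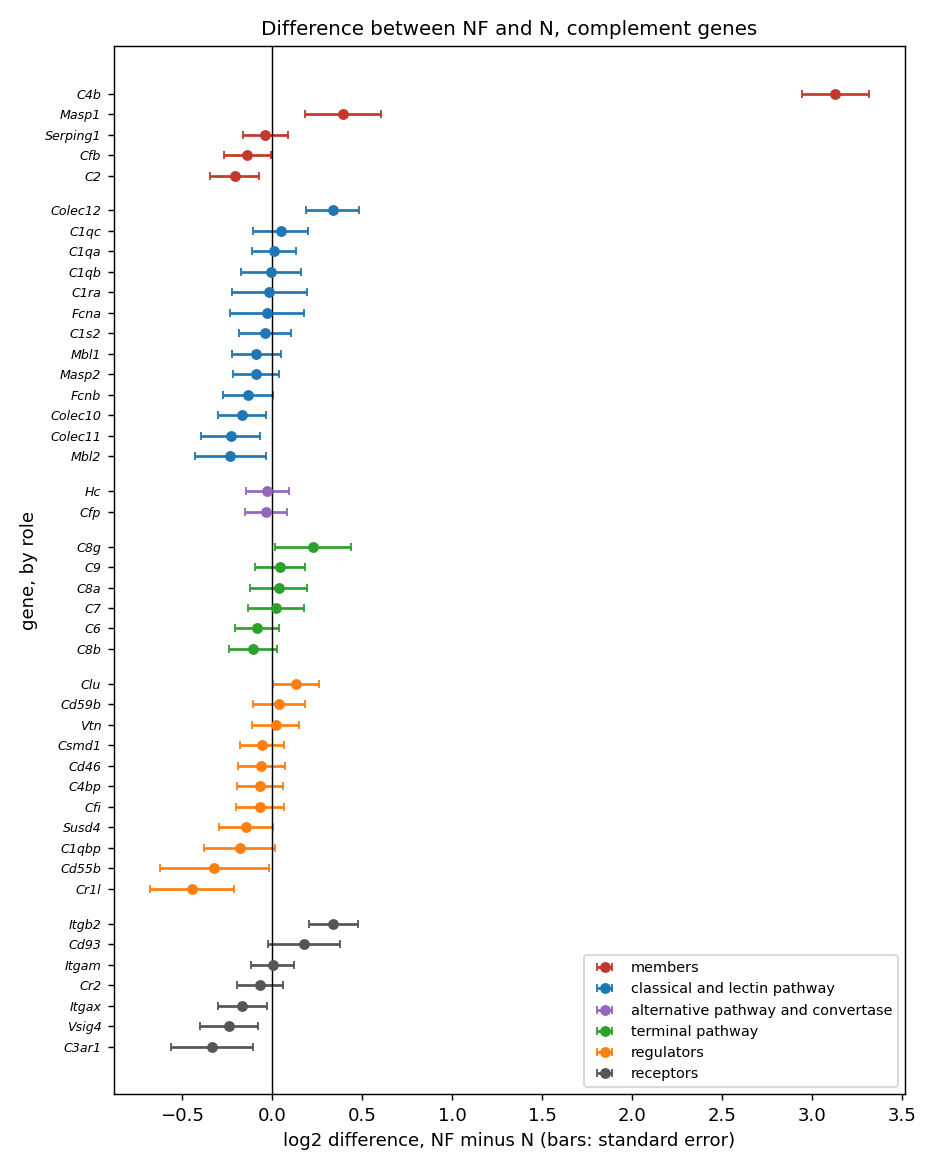
Difference between NF and N arrays on the log2 scale, with the standard error of the limma fit, for the 5 measured complement genes described first (members) and the 39 further complement genes grouped by role. C4b lies at 3.13, and the 39 further genes lie between -0.44 (Cr1l) and 0.34 (Itgb2).

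C4b, Cfb and C2 sit close together in the class III region of the mouse MHC on chromosome 17, which allows the difference of C4b to be set beside those of the genes around it. Taking the protein-coding genes of the RefSeq table for GRCm38.p6 up to the 15th on either side gave 35 neighbours, of which 27 were measured. limma called 0 of the 27 at an adjusted p under 0.05, where 2.55% of all genes were called. At an unadjusted p under 0.05 there were 6 (4 higher and 2 lower in NF cells), against 5 by that per-gene test, of which 0 held after adjustment.

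The measured genes next to C4b had far smaller differences. The nearest measured genes on one side, Tnxb and Atf6b, had differences of -0.03 and -0.12. Between C4b and C2 the rule found 5 genes, of which 4 were measured, Cyp21a1 (-0.33), Stk19 (-0.13), Dxo (-0.30) and Skiv2l (0.26). All 4 had limma intervals within 2-fold. Over the 27 neighbours the differences lay between -0.75 and 0.64 with a median of 0.11, which was 0.003 without N replicate 1. The 0.64 was that of Fkbpl, with 5.35 on N replicate 1 and 7.12 and 7.32 on N replicates 2 and 3. Skiv2l was also lowest on N replicate 1. Of the 27, 7 had groups that did not overlap, where 20.2% of all genes did.

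The neighbours of lowest p were Vars, Lsm2 and Ddah2. Vars, the valyl-tRNA synthetase gene, had 7.05, 7.55 and 7.19 on the NF arrays and 7.99, 7.82 and 8.25 on the N arrays, a difference of -0.75 with a limma adjusted p of 0.0808. Every NF value was below every N value, and Vars did not pass the threshold here but did after a further quantile normalization (adjusted p 0.0354). Lsm2, for a protein of the splicing machinery, differed by 0.44 (adjusted p 0.126) and Ddah2 by 0.53 (adjusted p 0.166), both with every NF value above every N value.

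**Figure D3:**
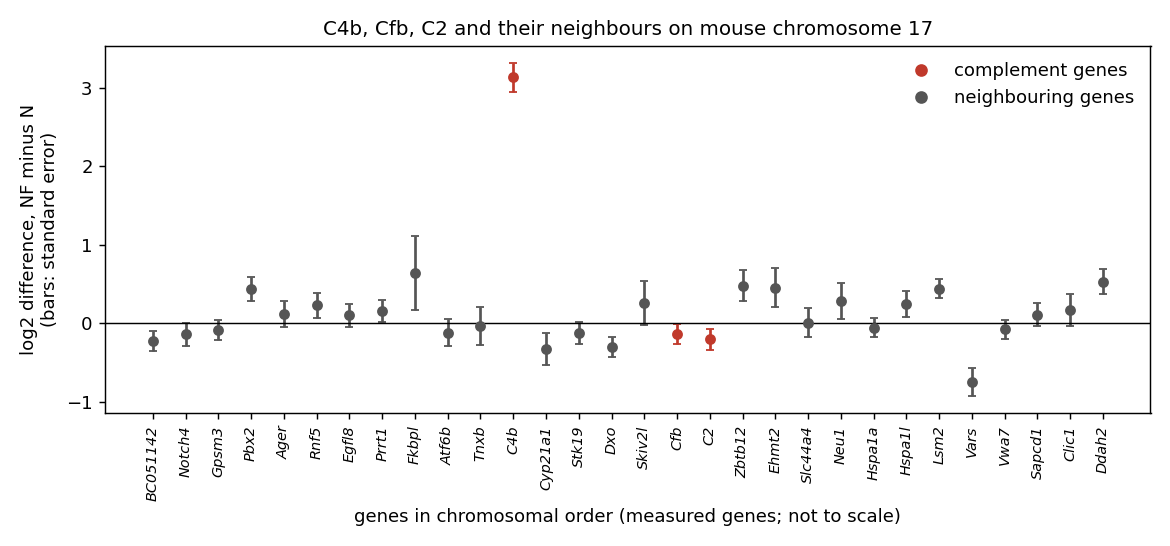
Difference between NF and N arrays on the log2 scale, with the standard error of the limma fit, for C4b, Cfb and C2 (red) and the 27 measured neighbours (grey) in chromosomal order, not to scale. C4b lies at 3.13, and the neighbours lie between -0.75 (Vars) and 0.64 (Fkbpl).

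Transcription of C4, C2 and factor B is known to respond to interferon gamma, interleukin 6, interleukin 1 and tumour necrosis factor, through STAT, C/EBP, IRF and NF-κB factors. Of 18 such factors and receptor genes listed, 13 were measured. limma called 2 of the 13 higher and 0 lower in NF cells, Stat3 and Il1r1, where 2.55% of all genes were called. Stat3, the factor that carries interleukin 6 signals, had 10.03, 9.79 and 10.22 on the NF arrays and 8.23, 9.05 and 9.07 on the N arrays. All NF values stood above all N values, with N replicate 1 the lowest, and the difference of 1.23 had an adjusted p of 0.0454.

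Il1r1, the signalling receptor of interleukin 1, had 7.04, 6.60 and 6.95 on the NF arrays and 4.90, 5.66 and 5.93 on the N arrays. Here too the groups did not overlap and N replicate 1 was lowest, and the difference of 1.36 had a limma adjusted p of 0.0425. Without N replicate 1 the differences were 0.95 for Stat3 (adjusted p 0.010) and 1.07 for Il1r1 (adjusted p 0.00911). Both calls were lost without NF replicate 1, NF replicate 2, NF replicate 3 or N replicate 2, where 0 of the 13 passed, and that of Stat3 also without N replicate 3 (adjusted p 0.0712), where 1 of the 13 passed. Fitting all probe sets, those without a single symbol included, also ended both calls (adjusted p 0.0734 for Stat3 and 0.0688 for Il1r1).

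The other factors and receptors did not pass. Rela, an NF-κB subunit, had 8.47, 8.71 and 8.27 on the NF arrays and 8.63, 9.05 and 9.24 on the N arrays, a difference of -0.49 with a limma adjusted p of 0.313. Without N replicate 1 it was -0.67 (adjusted p 0.0448), and 3 of the 13 passed. Cebpb differed by 0.09 and Irf1, an interferon-induced factor, by 0.53 with overlapping groups (adjusted p 0.472). The receptor genes Il6st and Tnfrsf1a differed by 0.09 and 0.14. Larger differences were those of Il6ra (0.74), Ifngr2 (0.38) and Ifngr1 (-0.23), with overlapping groups and limma adjusted p of 0.416, 0.338 and 0.740. Cebpa, dim on every array, differed by -0.25 without overlap between the groups (limma adjusted p 0.509). Whether any of these genes acts on C4b in NF cells was not tested.

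**Figure D4:**
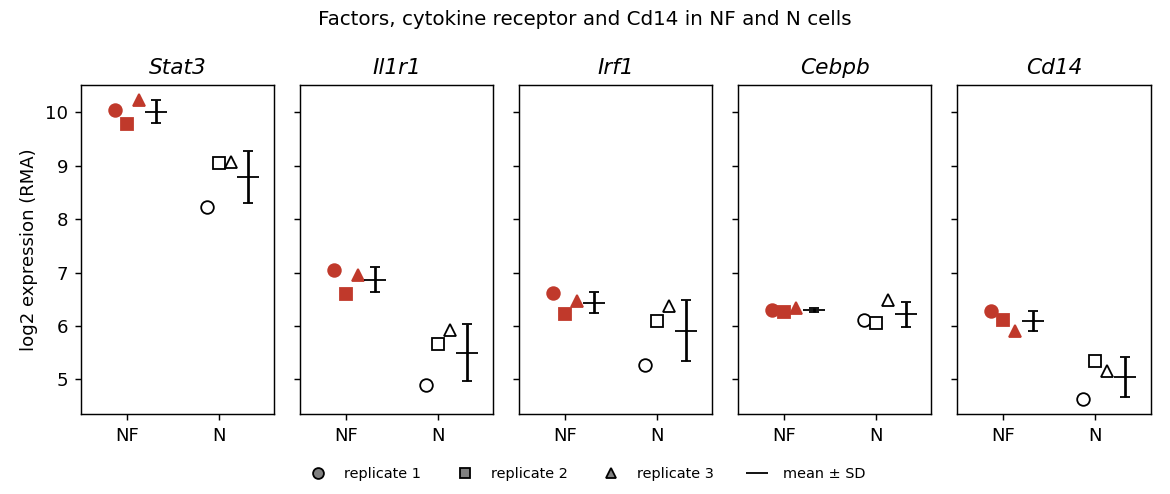
Log2 expression after RMA of Stat3, Il1r1, Irf1, Cebpb and the monocyte marker Cd14, with the 3 NF arrays (red) left of the 3 N arrays (open) and the group mean ± SD beside them. Stat3, Il1r1 and Cd14 are higher on every NF array than on any N array, and in Stat3, Il1r1, Irf1 and Cd14 the lowest of the 6 values is that of N replicate 1.

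Complement genes are also made by other cell types, so their markers were read beside C4b. The fibroblast label of the cells held for most markers, with 9 of 12 measured fibroblast genes above the line on all arrays and Fap, Lum and Postn dim on all. Summed fibroblast values were 91.5 to 93.5 on the NF arrays and 86.7 to 91.5 on the N arrays, with N replicate 1 lowest. Of the 12, 1 was called, Col3a1, with a difference of 1.33 (limma adjusted p 0.0157). The Col3a1 call was lost without NF replicate 1, NF replicate 3 or N replicate 3 (adjusted p 0.113, 0.114 and 0.0561). Thy1, a surface marker of fibroblasts, differed by 0.98 without overlap between the groups but did not pass (limma adjusted p 0.227). Its value on N replicate 1, 5.95, was lowest, against 7.39 and 7.04 on N replicates 2 and 3. Of the 9 measured hepatocyte genes, 0 were called and 8 were dim on all arrays, Alb, Ttr and Hnf4a among them, with sums of 25.0 to 25.9 on the NF arrays and 24.7 to 26.5 on the N arrays.

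Among 7 measured markers of macrophages and other leukocytes, 1 was called. This was Cd14, an endotoxin co-receptor, with 6.28, 6.11 and 5.90 on the NF arrays and 4.63, 5.35 and 5.16 on the N arrays, a difference of 1.05 (limma adjusted p 0.0439) and 0.84 without N replicate 1 (adjusted p 0.0154). The call was lost without NF replicate 1, 2 or 3 or N replicate 3, with adjusted p between 0.0899 and 0.235, and with all probe sets in the fit (0.0692). Lyz2, the lysozyme gene of myeloid cells, was above the line on all arrays, with 6.34, 6.06 and 6.16 on the NF arrays and 4.07, 5.98 and 5.54 on the N arrays. Its groups did not overlap, N replicate 1 was lowest, and the difference of 0.99 had a limma adjusted p of 0.371. The other 5 measured leukocyte genes, Ptprc, Tyrobp, Fcer1g, Itgam and Cd68, were dim on all 6 arrays. The sum over the 7 was 26.3 to 27.4 on the NF arrays and 23.3 to 25.8 on the N arrays, with N replicate 1 lowest. Adipocyte, endothelial and epithelial markers had 0 of 7, 0 of 8 and 0 of 8 called, and the 8 endothelial genes were dim on all arrays. Of the adipocyte genes 6 were dim on all arrays, and Lpl was above the line on all. Of the epithelial genes 4 were dim on all arrays, and Krt14 was above the line on all. The epithelial gene Cdh1 was above it on 4 arrays, with a difference of -0.48 and overlapping groups (limma adjusted p 0.345). The adipocyte sums overlapped between NF and N, at 23.2 to 25.0 on the NF arrays and 23.8 to 24.4 on the N arrays. The endothelial sums were 22.4 to 22.8 on the NF arrays and 22.7 to 24.0 on the N arrays, with N replicate 1 highest. The epithelial sums were 26.0 to 26.8 on the NF arrays and 26.7 to 27.7 on the N arrays. The part of other cell types in the C4b difference was not tested.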

How the data were processed

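Total RNA of 6 cultures was hybridised to Affymetrix gene arrays. The authors deposited RMA values on the log2 scale, computed with the R/Bioconductor package oligo, version not given in the sources used here. RMA corrects background, equalizes the arrays' distributions and summarizes the probes of a set, which pulls dim values towards a common floor. The authors discarded probe sets without an Entrez gene and used an ENSEMBL annotation whose release and build are not given. Which arrays were normalized together is not given either. Depth does not apply to arrays, and 3 arrays per group limit the precision. All 6 value columns were matched to an array, leaving 0 without a sample.

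Of 22035 probe sets, 18197 had 1 gene symbol in the platform annotation, 1260 had several and 2578 were not listed. Only the 18197 were fitted (NF against N, lmFit and eBayes, R 4.3.3 with limma 3.58.1), and p-values were adjusted after Benjamini-Hochberg across all 18197, with a threshold of 0.05. Each of the 16797 genes was represented by its probe set of lowest p. The procedure was tested on simulated data with independent noise for each probe set and no outlying array. That test therefore does not cover an array such as N replicate 1.

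The members, gene lists and alternatives were chosen with earlier results of these data known. Named genes are every member; from the other complement genes, factors and neighbours, the genes with adjusted p under 0.05 and the 3 of lowest p where fewer pass; and the 5 most correlated with C4b among probe sets with a range of 1 or more. Genes named beyond this rule as examples of a role or position, and the cell type markers singled out, were chosen after their values were seen. Alternatives were a replicate block, further quantile normalization, median centring, leaving out dim probe sets, limma's trend and robust options, the probe set of highest mean, all probe sets in the fit, the unmoderated per-gene test (named in the study's general statistics, whose array methods name limma), and leaving out arrays. No sequences are shown, because the tables used here list none for the measured members.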

Additional observations from a re-analysis of the deposited data

How the results depend on the processing

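The C4b difference was 2.99 to 3.27 over 17 alternatives, with both ends from leaving out single arrays. Alternatives that change only the test, the replicate block or the probe sets used cannot move it. Further quantile normalization gave 3.10 and median centring 3.09. The members were selected on NF and N values of these arrays, so their calls are no support. Adjusting the per-gene test left 0 members past the threshold, and 1 gene among all. Serping1 was positive in 4 of 16. C2, Cfb, Masp1 and Serping1 have no value where dim probe sets were left out. Of the factors, 0 were called with a replicate block, with all probe sets in the fit and by the per-gene test after adjustment, and 0 to 3 when single arrays were left out. Of the other complement genes, 1 (Itgb2) was called by the per-gene test unadjusted. Of the neighbours, 1 (Vars) was called without N replicate 1 and NF replicate 2 as a pair and after quantile normalization, and 5 by the per-gene test unadjusted. The lower p-values of the unadjusted test come with no correction over the 18197 probe sets, and the cause of the other shifts was not tested.

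The labels do not say whether NF and N cultures were paired, and no sign of pairing by replicate number was seen. Deviations of NF and N arrays of the same number correlated at -0.0748, -0.0780 and -0.0736, and each array matched best one of another number. The best matches were mutual, NF replicate 1 with N replicate 2, NF 2 with N 3 and NF 3 with N 1. Whether cultures were paired in that way was not tested. The replicate block lowered the calls to 80 of all genes, with 0 factors (adjusted p 0.0851 for Stat3 and 0.0900 for Il1r1) and neither Cd14 (0.110) nor Col3a1 (0.0603) among them. Stat3 was called in 9 and Il1r1 in 10 of 17 alternatives (adjusted p 0.00529 to 0.360 and 0.00440 to 0.355), and Cd14 in 10. Each count includes the per-gene test unadjusted, where p itself was used (0.0158 for Stat3, 0.0153 for Il1r1 and 0.0122 for Cd14). After adjustment that test called none of them. Most complement genes lie below the dim line, where an array resolves changes poorly.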

Other observations

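The genes whose values followed C4b most closely over the 6 arrays, among probe sets with a range of 1 or more, were Glul, Bub1, Stil, Cdk1 and Slpi, with Pearson r of 0.998, 0.997, 0.997, 0.996 and 0.995. The 6 arrays fall into the NF and N groups, so any gene that separates these groups with little spread has a high r, and the values are a description. Glul, the glutamine synthetase gene, had 6.84, 6.59 and 6.79 on the NF arrays and 4.95, 5.0 and 4.87 on the N arrays. Slpi, a secreted inhibitor of leukocyte serine proteases, had 8.98, 8.65 and 8.92 on the NF arrays and 7.26, 7.37 and 6.99 on the N arrays. Bub1, Stil and Cdk1, genes of mitosis and centriole duplication, were higher in NF cells by 1.54, 1.34 and 1.46. All 5 had their lowest NF value in replicate 2, as C4b did. Among genes changed by FSK in Normal cells, the paper reports that repressed cell cycle genes were enriched. Bub1, Stil and Cdk1 were picked for following C4b, which was higher in NF cells, so they had to be higher too. Their direction therefore says nothing about that enrichment, and why they were higher was not tested.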
